A study of Mus musculus with 6 samples.

Results

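DNA methylation was compared between obstructed kidneys of saline-treated mice and kidneys of sham-operated mice. The comparison used 4 of the 6 libraries of the series: the 2 whose treatment label is UUO+saline and the 2 whose treatment label is sham. All mice were male wild-type C57BL/6J, and DNA came from kidney cortex together with outer medulla. In unilateral ureteral obstruction (UUO) the left ureter is tied and cut, and the kidney was taken at day 7 (libraries saline 1 and saline 2). Sham 1 was titled as the sham for this 7-day model. Sham 2 was titled as the sham of kidney ischemia/reperfusion, with 48 hours in its name, so each sham is also given on its own. The remaining 2 libraries, obstructed kidneys of mice given the drug labelled 5AZA at 1 mg/kg/day by intraperitoneal injection, entered only the shared estimate of spread and the sorting of sites into classes. The labels do not say that libraries came from separate animals, so the p-values speak only of how far these samples vary, and that variation may be partly technical. Whole tissue was used, so a change of methylation within cells and a change in the mix of cells cannot be told apart.

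Obstruction of the ureter is a standard model of kidney fibrosis: tubules dilate and lose epithelial cells, leukocytes enter, and fibroblasts deposit matrix. Methyl groups on the cytosine of CpG dinucleotides are written by DNA methyltransferases. CpG-rich promoters of active genes are usually free of them, most of the remaining genome carries them, and dense methylation of a promoter goes with silencing. Named in the title of the series are the homeobox gene Hoxa5, whose product is a transcription factor, and Jag1, which encodes a ligand of Notch receptors.

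Reduced representation bisulfite sequencing was used, in which MspI cuts DNA at CCGG and short fragments are read after bisulfite conversion. A methylation level is the percent of reads at a CpG that were methylated. Coverage summed over CpG sites came to 76730132 in saline 1, 65733691 in saline 2, 68501854 in sham 1 and 37728517 in sham 2. A read that spans several CpGs counts at each of them in these sums. The median coverage of a site ranged from 21 reads in sham 2 to 48 in saline 1. Sites with at least 10 reads in all 6 libraries numbered 943307. Reads are not known to be separate molecules. Some of these sites had the coverage or neighbourhood of a fragment end, where the protocol fills in bases with methylated dCTP. They are called candidate fragment-end sites, and 837218 sites were left without them.

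Sites of intermediate level differed most between obstructed and sham kidneys. Sites were sorted by their level in the 5AZA libraries, which take no part in the difference, and candidate fragment-end sites were left out. At the 21308 sites with 20 to 40% methylation in the 5AZA libraries, saline 1 had 37.4%, saline 2 had 37.3%, sham 1 had 32.0% and sham 2 had 29.1%. Both obstructed kidneys thus lay above both shams, and they differed from each other by 0.0131 points. The difference of saline minus sham was 6.83 percentage points, with 5.38 points against sham 1 and 8.28 points against sham 2.

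The same order of libraries held in all 7 classes. At 40 to 60% (25274 sites) the saline libraries had 59.7% and 59.6%, sham 1 had 55.9% and sham 2 had 52.7%. At 5 to 20% (59321 sites) both saline libraries were at 10.1%, sham 1 at 8.32% and sham 2 at 6.59%. The 387020 sites under 5% had 1.92% and 1.96% in saline, 1.64% in sham 1 and 0.811% in sham 2. Between the shams, sham 2 minus sham 1 was -2.90 points at 20 to 40% and -3.21 points at 40 to 60%. The distance from saline to sham 1 was larger than this gap in the classes from 5 to 60%, and smaller under 5% and from 60% upward. At 80 to 95% (174713 sites), for example, saline minus sham 1 was 0.648 points and sham 2 minus sham 1 was -1.37 points.

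**Figure D1:**
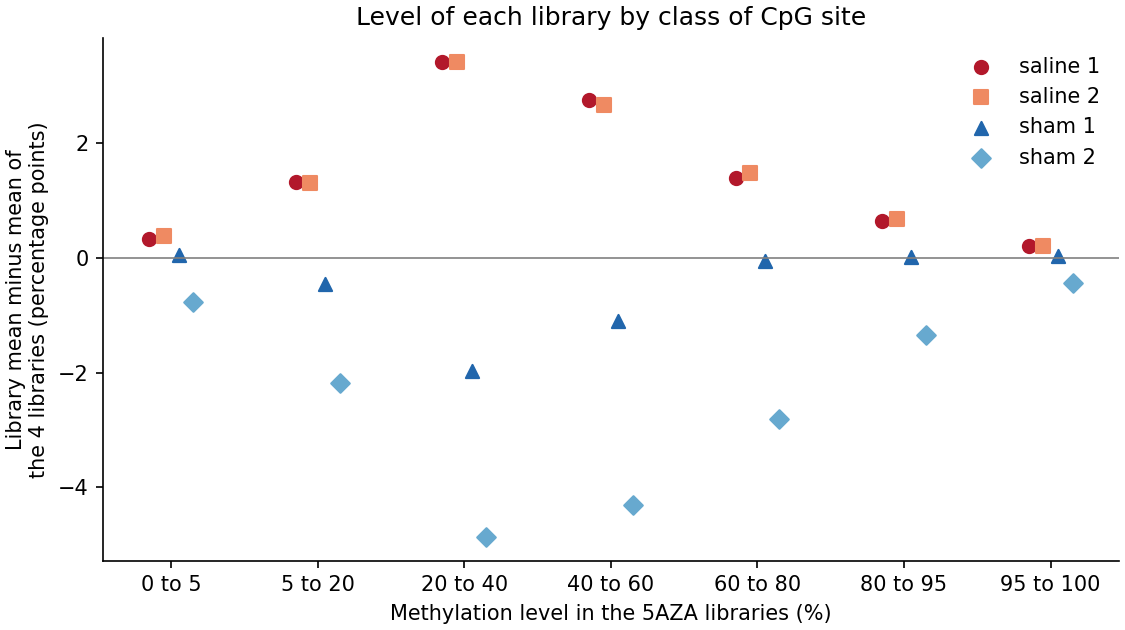
Mean methylation of each library minus the mean of the 4 libraries, in percentage points, for 7 classes of CpG site sorted by their level in the 5AZA libraries, without candidate fragment-end sites. Both saline libraries lie together above both shams in every class, and the distance is largest at 20 to 40%, where saline minus sham was 6.83 points.

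Averaged over all 943307 sites, both saline libraries stood at 45.3%, with 44.4% in sham 1 and 42.9% in sham 2. Saline minus sham was 1.61 points, with 0.865 points against sham 1 and 2.36 points against sham 2. By the exact permutation test (two-sided) p was 0.33, and no smaller p is possible with 2 libraries in each group. As methylated reads over all reads, the same sites gave -0.0686 points, with -1.82 points against sham 1 and 1.68 points against sham 2, so the direction of the overall difference depended on the weighting of sites. The 15018 shared sites of the X chromosome differed by 1.28 points, and the 127 of the Y chromosome by 2.35 points, with 83.0% and 84.5% in saline against 81.5% and 81.3% in sham.

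Windows of 1 kb with at least 3 sites were also higher in saline more often than lower. Over 89813 windows the median of saline minus sham was 1.13 points, with 0.468 points against sham 1 and 1.84 points against sham 2. Differences of at least 10 points upward were found in 4147 windows and of at least 10 points downward in 447. Against sham 1 alone these counts were 3038 and 966. Between the 2 saline libraries they were 1466 and 1565, so in that pair large differences were about as many in either direction. Between the shams, sham 2 minus sham 1 gave 1028 upward and 4989 downward, so large differences there were also mostly in 1 direction. Both saline libraries lay above both shams in 28973 windows (32.3%) and below both in 8737 (9.73%). Among sites without candidate fragment ends these shares were 21.7% and 7.81%. Sham 2 lay lower than sham 1 as a library: the median of sham 2 minus sham 1 was -1.38 points, and no part of these shares was tested apart from that shift.

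Pairs of differences that share no library were set side by side. Of the 4145 windows at least 10 points higher in saline 1 than in sham 1, 40.4% were also at least 10 points higher in saline 2 than in sham 2, against 9.19% of all windows. Of the 1795 windows at least 10 points lower in the first pair, 7.69% were at least 10 points lower in the second, against 1.05% of all. The second pair averaged 1.92 points in these 1795 windows, with 39.3% of them negative, so most were not lower in it. In the crossed pairing, 17.7% of the 8780 windows at least 10 points higher in saline 1 than in sham 2 were also higher by that much in saline 2 than in sham 1, against 3.57% of all windows. Of the 1208 windows at least 10 points lower in saline 1 than in sham 2, 12.2% were lower by that much in saline 2 than in sham 1. The share of all windows was 1.14%. Saline 2 minus sham 1 averaged -2.22 points in these 1208 windows, with 62.0% of them negative, so here most were lower. Across the 89813 windows the first pairing correlated at r = 0.233 and the crossed one at r = 0.307. These windows share their libraries, their depth and their CpG content, and are not independent replicates.

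In the edgeR quasi-likelihood test 45 of 89813 windows differed between saline and sham (Benjamini-Hochberg adjusted p under 0.05, 0.0501% of windows), 40 higher and 5 lower after obstruction. At an unadjusted p under 0.05, 7818 windows were higher and 1545 lower. The count depended on the sham used and on single libraries of both groups. Against sham 1 alone 1 window was called (0.00111%), against sham 2 alone 38 (0.0423%), and between the shams 6 (0.00668%). Of the 45, 14 also passed against sham 2 alone and 1 against sham 1 alone. Without saline 1 the count was 0 by edgeR (5805 unadjusted), without saline 2 it was 7, without sham 2 it was 1, and without sham 1 it was 40. Limma called 0 windows (9756 unadjusted). Without candidate fragment-end sites edgeR called 0 (8453 unadjusted). In the 40 rising windows saline minus sham averaged 17.7 points per window with all sites, and 15.9 points per site over the 767 sites that are no candidate fragment ends.

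The rising windows had intermediate levels in sham and moved against each sham by like amounts. Their mean level was 60.5% in saline 1, 60.2% in saline 2, 44.0% in sham 1 and 41.2% in sham 2. The difference was 16.3 points on average against sham 1, ranging from 7.81 to 25.2, and it ranged from 10.3 to 34.1 points against sham 2. The rise was spread over the sites within them: of the 767 sites without candidate fragment ends, 621 (81.0%) were above both shams in both saline libraries and 8 were below both. The windows were chosen for this difference, so these values describe them. The 5 falling windows had 72.9% and 75.5% in saline against 90.4% and 90.6% in sham, and in them 33 of 44 such sites lay below both shams and 0 above.

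**Figure D2:**
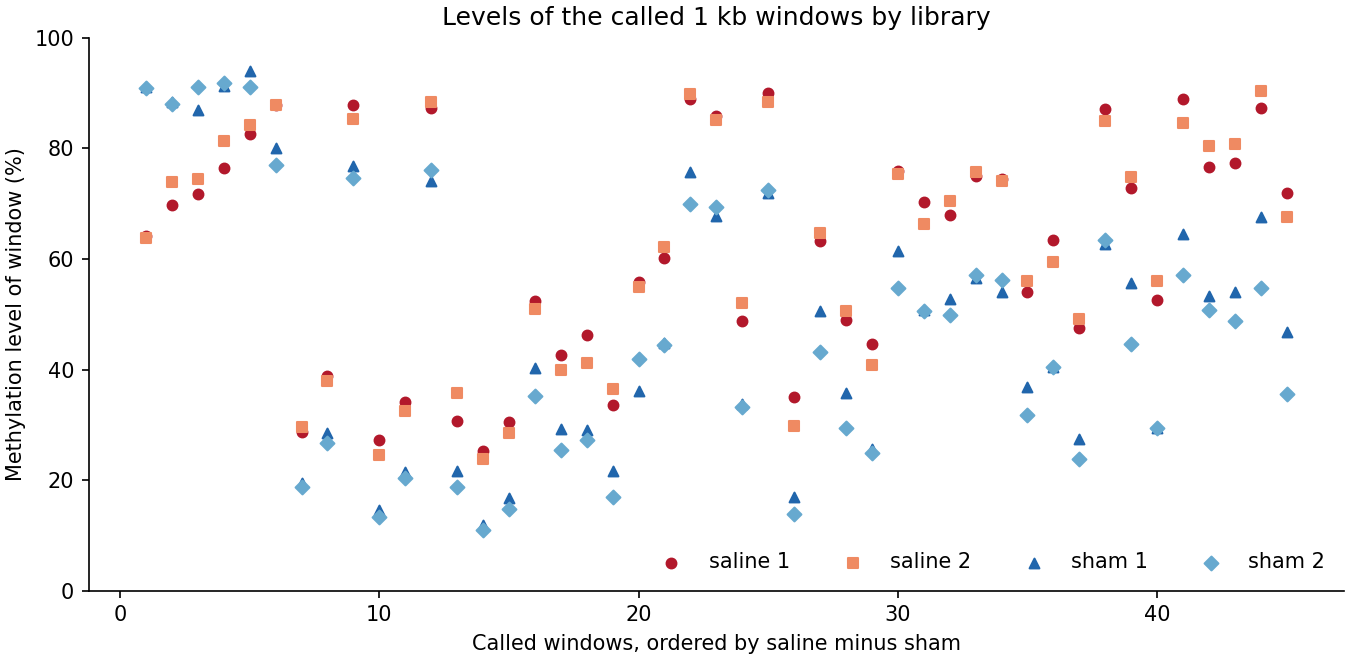
Methylation level of each of the 45 called windows of 1 kb in the 4 libraries, in percent, ordered from the largest fall to the largest rise of saline minus sham. In every window both saline libraries lie on the same side of both shams, from a difference of -27.1 points to one of 28.6 points.

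The largest rise was at chr8:13248001-13249000 (mm9, as are all positions here), with 72.0% and 67.6% in saline, 46.8% in sham 1 and 35.6% in sham 2. At chr10:79279001-79280000, inside Palm, which encodes a lipid-anchored membrane protein, the levels were 87.4% and 90.4% against 67.5% and 54.7%. The shams differ from each other by over 10 points in both windows. At chr6:134199001-134200000 they lay closer, with 76.7% and 80.5% in saline against 53.4% and 50.7%. Similar rises were found at chr17:44272001-44273000 (77.4% and 80.8% against 54.1% and 48.8%) and at chr3:104467001-104468000 (88.9% and 84.6% against 64.5% and 57.1%).

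The largest fall, at chr15:79891001-79892000, went from 91.2% and 91.0% in sham to 64.2% and 63.8% in saline, over 4 sites. The fall at chr16:36709001-36710000 lay inside Ildr1, which encodes a tight junction protein of tricellular contacts, with 94.1% and 91.0% in sham and 82.6% and 84.2% in saline. The other 3 falling windows, on chromosomes 10, 11 and 5, had sham levels of 86.9% to 91.8% and saline levels of 69.7% to 81.3%.

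One window passed the edgeR test against sham 1 alone, and it was singled out for that after its values were seen. At chr11:97361001-97362000 (48 sites, 1628 to 3885 reads per library) the levels were 55.8% and 54.9% in saline, 36.2% in sham 1 and 41.8% in sham 2 (edgeR adjusted p = 0.0398 against sham 1 and 0.0283 against both shams). The next window, from 97362001, was called too, with 47.5% and 49.1% in saline and 27.4% and 23.8% in sham. Here both saline libraries lay above both shams, and sham 2 was above sham 1 in the first window and below it in the second.

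Few called windows lay at start sites that could be placed. Of the 45, 1 held a start region that could be placed on mm9 (Hoxa5), and 3 held one or lay next to one (Hoxa5, Zfp503 and Fscn2). Within 2 kb of a placed start site lay 3 of the 45 (6.67%), against 12.8% of all windows, but the median distance to a placed start was shorter for called windows (41221 bp) than for all (66653 bp). The window next to Zfp503, a zinc finger repressor gene, lay at chr14:22810001-22811000, with 34.1% and 32.5% in saline and 21.5% and 20.5% in sham (edgeR adjusted p = 0.0429). The window beside Fscn2, which encodes an actin-bundling fascin of retina and inner ear, lay at chr11:120223001-120224000, with 87.8% and 85.3% against 76.7% and 74.6% (edgeR adjusted p = 0.0457). Inside the span of a placed gene lay 14 windows (31.1%), against 23.0% of all windows. Among them, one lay 91074 bp downstream of the placed start of Runx1, a transcription factor gene of blood cells, with 33.6% and 36.5% in saline against 21.7% and 16.9% in sham. Another lay 9207 bp downstream of the start of Sipa1, which encodes a GTPase-activating protein for Rap, with 49% and 50.6% against 35.7% and 29.5%. Both genes were singled out after the values were seen.

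The rise reached into the neighbouring kilobase. Of the measured windows directly before a rising window, 10 of 10 had both saline libraries above both shams, with a mean difference of 8.95 points. Directly after it the count was 10 of 11, with 8.90 points. Of all windows, 32.3% had both saline libraries above both shams, and the median of saline minus sham was 1.13 points. Windows at an offset of 2 kb differed by 0.234 points before (11 windows) and 5.77 points after (8 windows), and those 5 kb away by 1.5 and 2.96 points. Neighbours that were called themselves are left out, and few windows are measured at each offset.

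**Figure D3:**
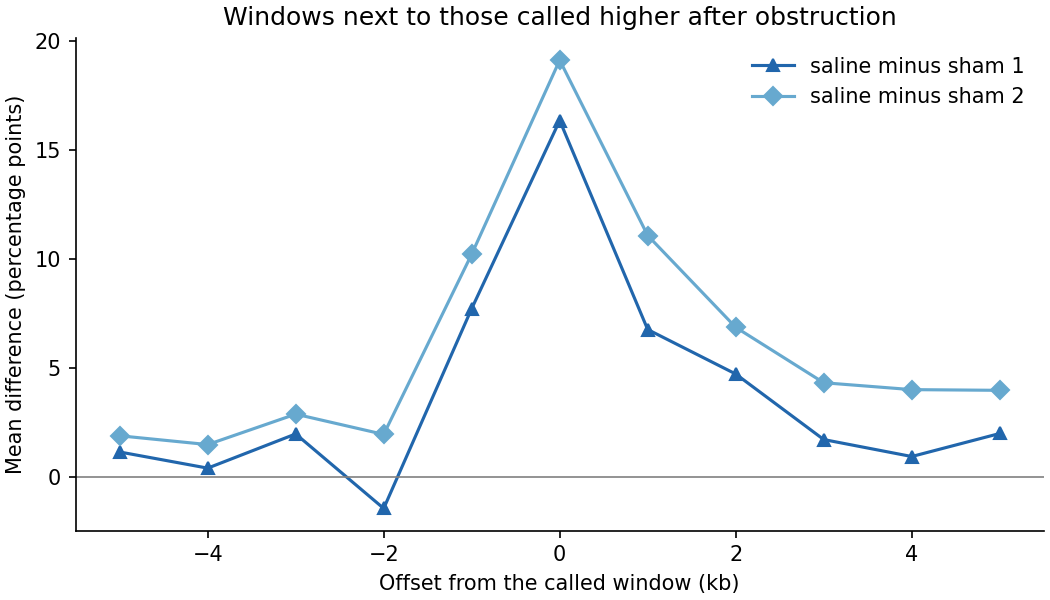
Mean methylation difference in percentage points against offset in kb from the 40 called rising windows, for saline minus sham 1 and saline minus sham 2. The called windows at offset 0 were chosen for their difference and stand at 16.3 points against sham 1, and the adjoining windows at 7.70 and 10.2 points before and 6.74 and 11.1 points after.

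Close to start sites, where methylation was low, the difference was smaller than farther away. Start regions were placed on mm9 by matching the spacing of CpGs in RefSeq promoter sequences to the covered positions, which gave 8099 start regions of 7314 genes. Candidate fragment-end sites and the CpGs inside CCGG of placed promoters, which were high, were left out of these levels. In the 250 bp before the start, where levels were lowest, saline minus sham was 0.921 points. In the 250 bp after it, levels were 4.0% and 4.04% in saline, 3.72% in sham 1 and 2.76% in sham 2. Saline minus sham was 0.778 points there, with 0.299 against sham 1 and 1.26 against sham 2. From 1500 to 2000 bp downstream the levels were 39.4% and 39.2% in saline against 38.1% and 36.4% in sham, a difference of 2.06 points. From 5000 to 10000 bp downstream it was 2.08 points, and at the same distance upstream 2.03 points. In each of the 16 distance bins both saline libraries lay above both shams.

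**Figure D4:**
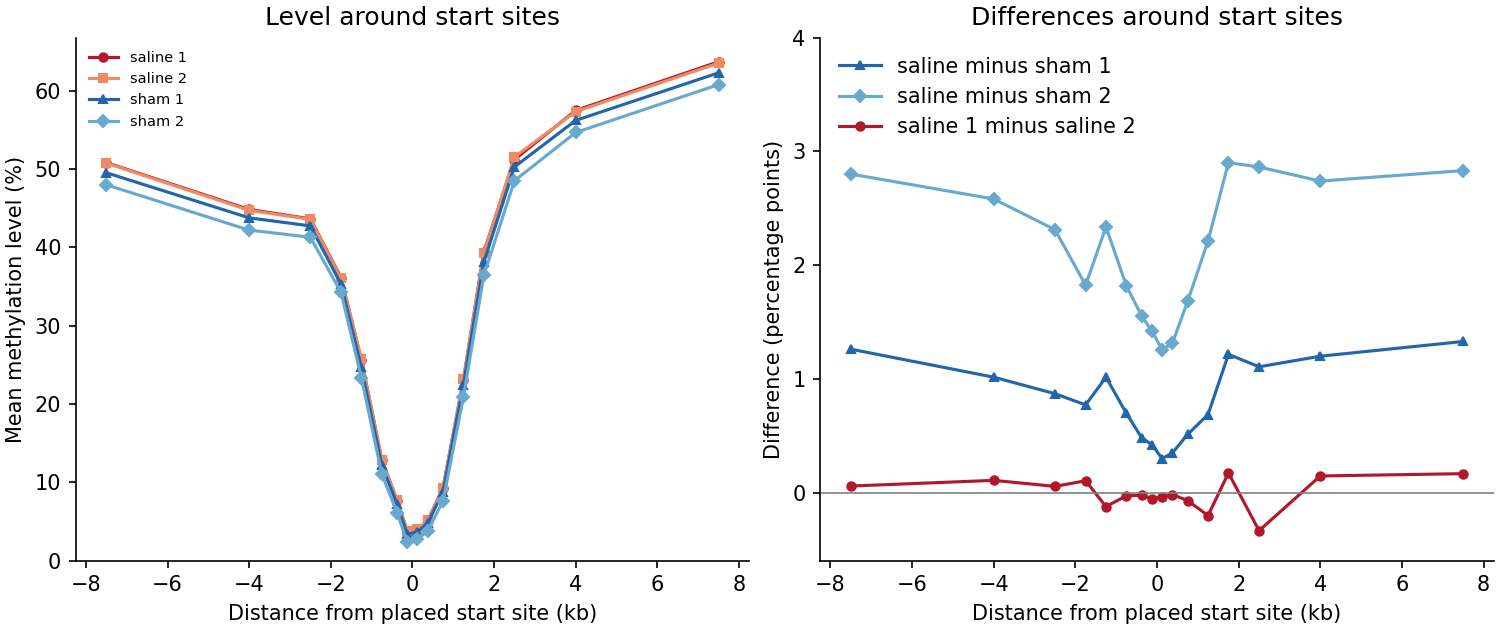
Left, mean methylation level in percent of the 4 libraries against distance in kb from placed start sites; right, differences in percentage points for saline minus each sham and for saline 1 minus saline 2. Candidate fragment-end sites and the CpGs inside CCGG of placed promoters are left out. Levels of the other sites dip below 5% at the start, where saline minus sham 1 falls to 0.299 points and saline minus sham 2 to 1.26 points. Saline 1 minus saline 2 stays between -0.335 and 0.172 points.

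Promoter values depend on the MspI site itself. The motif CCGG, which reads the same on both strands, occurred in 52.8% of all 32851 RefSeq promoter sequences of 300 bases and in 100% of the 6689 placed promoters that had at least 3 shared sites. In placed promoters the 13758 CpGs inside CCGG averaged 74.4% and 74.6% in saline, 73.3% in sham 1 and 69.7% in sham 2. The 57215 other CpGs averaged 3.56% and 3.60% in saline, 3.20% in sham 1 and 2.21% in sham 2. Of the CpGs inside CCGG, 82.8% were candidate fragment-end sites, against 1.08% of the others. A promoter's level over all its sites therefore mixes both kinds. Levels without CCGG sites, an alternative chosen after the data were seen, are given too. Those of the gene lists are without CCGG sites unless all sites are named.

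No promoter passed the adjusted test. Of 6689 promoters, 0 were called by edgeR (0%) and 0 by limma. At an unadjusted p under 0.05 edgeR had 494 (7.39%), 423 higher and 71 lower after obstruction, and limma had 453. The median promoter difference was 1.10 points, with 0.272 points against sham 1 and 2.01 points against sham 2. Between the shams, sham 2 minus sham 1, it was -1.78 points. Against sham 1 alone 56.3% of promoters were higher in saline, and against sham 2 alone 83.8%. Without CCGG sites 0 of 6325 were called, with 340 higher and 14 lower at an unadjusted p under 0.05. Of these 6325 promoters, 5727 had a level under 5% in the 5AZA libraries, and there the means were 2.14% and 2.18% in saline, 1.88% in sham 1 and 0.952% in sham 2. The 154 promoters of 20 to 80% had 50.2% and 52.1% in saline, 48.7% in sham 1 and 45.1% in sham 2, and 62 of them lay above both shams in both saline libraries against 20 below. These were 40.3% and 13.0% of the 154, against 36.5% and 3.65% of the promoters under 5%. With 1 promoter per gene, 36.9% of all 5795 genes lay above both shams and 3.99% below. The share above was thus near that of all genes, and the share below was larger.

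Hoxa5 had the called window that holds a placed start. Its upstream sequence is shown because its 5 covered CpGs outside CCGG lay higher in both saline libraries than in both shams. The 250 bases before the start are given in 5′ to 3′ order on the gene's strand (minus), at chr6:52154587-52154836 from the match, with the sequence from RefSeq (GRCm38.p6). Capitals mark the 7 covered CpGs of 28 in this stretch, and 2 CCGG lie in it.

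Hoxa5: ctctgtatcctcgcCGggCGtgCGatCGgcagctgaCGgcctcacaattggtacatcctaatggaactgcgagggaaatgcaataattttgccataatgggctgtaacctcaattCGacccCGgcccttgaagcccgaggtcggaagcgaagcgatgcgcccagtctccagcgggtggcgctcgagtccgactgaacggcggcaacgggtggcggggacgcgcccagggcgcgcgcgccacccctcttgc

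At the 5 covered CpGs outside CCGG the Hoxa5 promoter had 31.8% in saline 1, 42.3% in saline 2, 14.1% in sham 1 and 8.46% in sham 2. The groups did not overlap, and the saline libraries differed from each other by more than the shams did. The CpG at -224 bp from the start, for example, had 30.8% and 51.9% in saline, 13.1% in sham 1 and 7.5% in sham 2, and the one at -135 bp had 22% and 24.1% against 5.0% and 0%. The CpGs inside CCGG were high in every library, with 88.0% and 75.9% in saline and 83.3% and 63.4% in sham at -129 bp. Over all 7 sites the promoter had 44.6% and 55.1% in saline against 32.3% and 26.2% in sham, and it did not pass (edgeR adjusted p = 0.544, with 0.0123 to 1 over the alternatives).

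The window that holds the Hoxa5 start, chr6:52154001-52155000, had 30.8% and 35.8% in saline and 21.7% and 18.8% in sham as summed reads (45 sites, edgeR adjusted p = 0.0429, with 0.00793 to 0.471 over the alternatives). Without candidate fragment-end sites, 36 of its 44 sites lay above both shams in both saline libraries and 0 lay below. Over all such sites the shares were 21.7% above and 7.81% below. The window was called from reads at these same sites, so the counts describe it and are no further test. Averaged per site, the 24 sites in the first 500 bp after the start had 31.8% and 35.3% in saline, 19.7% in sham 1 and 15.7% in sham 2. The 26 sites of the next 500 bp had 22.8% and 31.7% against 16.4% and 12.8%, and the 9 sites of the 500 bp before the start had 47.0% and 54.9% against 34.1% and 29.7%. Difference and order of libraries were thus alike on both sides of the start. Saline 2 lay above saline 1 in each of these 3 bins, by up to 8.91 points. The filter for candidate fragment ends did not mark the CpGs inside CCGG at -236 and -129 bp. They are thus among the 9 sites before the start and the 44 sites of the window. The 5 covered promoter CpGs outside CCGG had 31.8% and 42.3% in saline against 14.1% and 8.46% in sham.

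**Figure D5:**
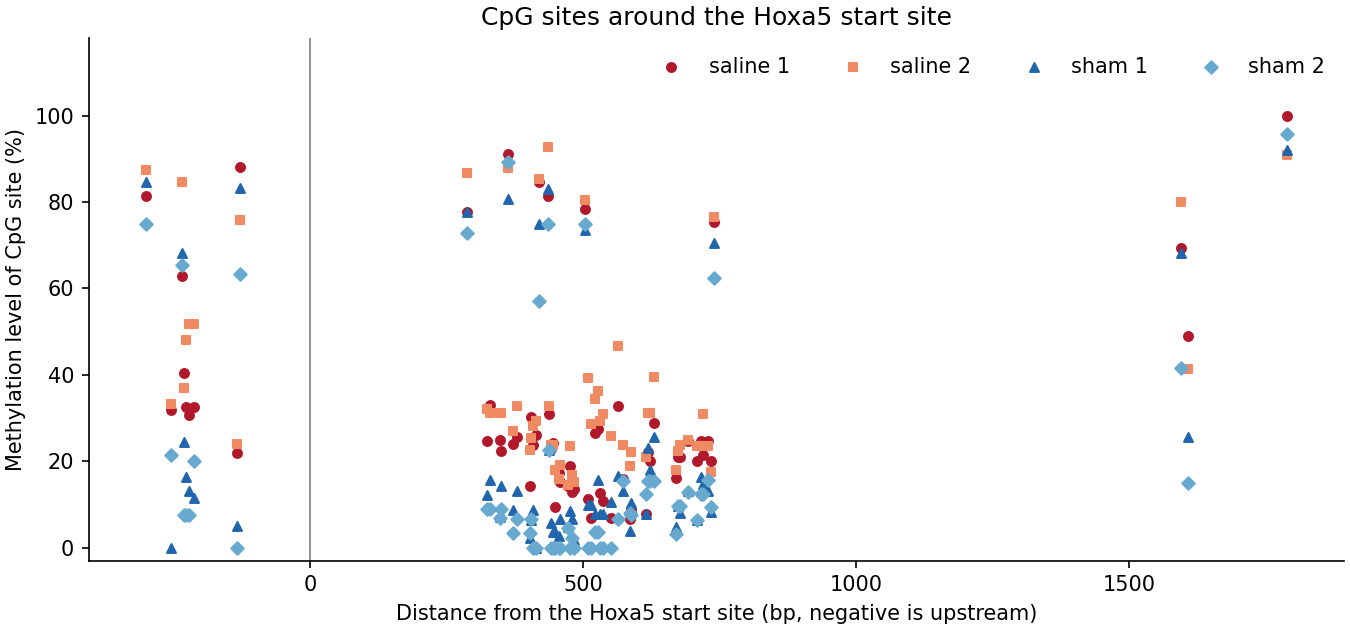
Methylation level in percent of each covered CpG around the placed Hoxa5 start site in the 4 libraries, against distance in bp. Within 1 kb of the start the saline points lie above the sham points at most sites, with means of 31.8% and 35.3% against 19.7% and 15.7% in the first 500 bp downstream.

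Jag1, the other gene of the title, had 3 shared sites in its placed promoter (170 to 213 reads). Its levels were 26.8% and 24.7% in saline and 23.7% and 25.3% in sham, so the groups overlapped (edgeR adjusted p = 0.929). Fewer than 3 of these sites lie outside CCGG, so no value is given without them.

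Among promoters whose 4 libraries did not overlap between groups, the 15 rises of smallest p had edgeR adjusted p-values from 0.472 to 0.561. They were Trhde, Gm13205, Ofd1, Krtcap3, Rtkn, Hoxa5, Ccdc158, Abhd17b, Igf2r, Cyb5d2, Rbmxl2, Tbx1, Gpr6, Gm30283 and Znhit1. The difference was also present outside CCGG in several of them. Krtcap3, a gene for a small membrane protein, had 34.3% and 27.5% in saline, 13.6% in sham 1 and 7.96% in sham 2 at 4 such sites. Igf2r, the imprinted gene of the receptor that carries mannose 6-phosphate enzymes and clears insulin-like growth factor, had 33.7% and 40.7% against 25.1% and 13.2% at 21 sites. Tbx1, a T-box transcription factor gene, had 42.6% and 48.2% against 30.6% and 37.2% at 11 sites. In each of these 3 promoters both saline libraries lay above both shams, and for Igf2r and Tbx1 the shams differed by more than the nearer saline and sham libraries.

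Others were low outside CCGG. Trhde, which encodes an enzyme that degrades thyrotropin-releasing hormone, had 31.6% and 28.6% in saline and 18.5% and 16.4% in sham over 13 sites. Its 11 sites outside CCGG had 6.21% and 15.0% in saline, 2.93% in sham 1 and 3.24% in sham 2. Ofd1, a gene of the centrosome and cilium, differed by 17.1 points over all sites, but had 1.47% and 0% in saline and 1.20% and 0% in sham at the 5 sites outside CCGG. The 3 CCGG sites of Ofd1 had 80.1% and 83.9% against 79.7% and 73.0%. They took 61.4% and 55.2% of its reads in saline and 41.4% and 38.7% in sham. As a mean over its 8 sites, each with equal weight, saline minus sham at Ofd1 was 2.05 points. Abhd17b, a depalmitoylase gene, had 22.3% and 19.6% against 14.1% and 13.3% over all sites and 0.885% and 2.38% against 0.748% and 0% without CCGG. Its 3 CCGG sites had 71.7% and 71.1% against 64.5% and 58.2%, and the mean over sites differed by 3.16 points.

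Most of the falls, too, were low outside CCGG. The 8 falls of smallest p were those of Ppt2, Il12a, Pdzd11, Gm35829, Aftph, Tcf7l2 and Git2, which has 2 overlapping start regions, with edgeR adjusted p-values from 0.544 to 0.659. A pair of them is shown in sequence, Il12a because its difference lies outside CCGG and Ppt2 because its level over all sites changes with the weight given to each site. These are the 250 bases before each start, at chr3:68495096-68495345 (plus strand) and chr17:34764381-34764630 (minus strand), from RefSeq (GRCm38.p6), with covered CpGs in capitals.

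Il12a: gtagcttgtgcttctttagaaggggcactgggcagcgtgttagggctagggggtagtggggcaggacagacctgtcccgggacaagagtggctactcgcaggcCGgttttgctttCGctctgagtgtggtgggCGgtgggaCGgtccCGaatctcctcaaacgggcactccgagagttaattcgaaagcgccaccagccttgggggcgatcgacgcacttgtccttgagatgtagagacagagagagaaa
Ppt2: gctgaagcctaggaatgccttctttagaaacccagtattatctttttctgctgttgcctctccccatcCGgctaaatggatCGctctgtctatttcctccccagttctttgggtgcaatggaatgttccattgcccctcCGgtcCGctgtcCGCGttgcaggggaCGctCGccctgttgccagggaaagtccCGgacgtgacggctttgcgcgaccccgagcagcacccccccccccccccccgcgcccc

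Il12a encodes a subunit of the cytokine interleukin-12. At its 4 covered CpGs outside CCGG the levels were 64.0% in saline 1, 77.7% in saline 2, 90.6% in sham 1 and 98.5% in sham 2. Each of the 4 sites, from -135 to -103 bp of the start, was lower in both saline libraries than in both shams, while the CpG inside CCGG at -147 bp had 87.8% and 89.1% in saline and 93.4% and 86.7% in sham. Coverage at the 4 sites went down to 16 reads, and the promoter had 127 to 400 reads per library over its 6 sites (edgeR adjusted p = 0.544). Ppt2, a lysosomal thioesterase gene, had 30.4% and 35.4% in saline and 47.8% and 52.3% in sham over 10 sites. Its 6 sites outside CCGG had 1.88% and 0% in saline against 1.72% and 1.14% in sham. Its 4 CCGG sites had 71.8% and 71.3% against 67.8% and 72.7%. The CCGG sites took 40.7% and 49.7% of its reads in saline, but 69.7% and 71.4% in sham. As a mean over sites, Ppt2 differed by 1.32 points upward. Tcf7l2, which encodes a transcription factor of Wnt signalling, had 8.04% and 11.6% against 14.8% and 13.2% over all sites and 1.43% to 1.74% in all 4 libraries without CCGG. Pdzd11, Gm35829, Aftph and Git2 had at most 5.50% outside CCGG in any of the 4 libraries. In all of these promoters except Il12a, CCGG sites took a smaller share of the reads in both saline libraries than in both shams, and the mean over sites differed by -1.18 to 1.32 points.

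Gene lists of kidney injury were read against all genes. With 1 promoter per gene and no CCGG sites, both saline libraries lay above both shams in 2140 of 5795 genes (36.9%) and below both in 231 (3.99%). The median difference was 0.720 points, with 0.296 points against sham 1 and 1.23 points against sham 2. No gene of any of 12 lists was called by edgeR or by limma after adjustment over all promoters. Over all sites, 396 of 6112 genes were higher and 60 lower at an unadjusted edgeR p under 0.05. Of the 29 genes of fibrotic matrix and myofibroblasts, 5 could be tested without CCGG sites. Their median was 0.349 points (0.234 against sham 1 and 0.935 against sham 2), with 1 above and 0 below. Col4a1, a basement membrane collagen gene, was the one above, with 1.73% and 1.45% in saline and 1.26% and 1.22% in sham. Tgfbr1, a receptor of transforming growth factor beta, had 2.77% and 3.32% against 3.0% and 2.77%, and Vim, the gene of the filament protein vimentin, 0.730% and 2.34% against 0.899% and 0.310%. These groups overlapped.

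Among genes that restrain fibrosis or growth, 5 of 16 could be tested. Their median was 0.425 points (-0.0855 against sham 1 and 0.935 against sham 2), with 2 above and 1 below. Pparg, a nuclear receptor gene, had 17.6% and 17.4% in saline, 8.73% in sham 1 and 14.8% in sham 2. Kl, the gene of the hormone and co-receptor Klotho, had 2.46% and 3.05% in saline and 3.21% and 3.38% in sham, which put both saline libraries below both shams. Smad6, an inhibitor of bone morphogenetic protein signalling, had 0.944% and 1.17% against 0.810% and 0.269%. The edgeR test without CCGG sites gave none of the 3 an unadjusted p under 0.05. Over all sites edgeR gave Pparg an unadjusted p of 0.0400 and an adjusted p of 0.659.

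In the Notch pathway 7 of 18 genes could be tested without CCGG sites. Their median was 0.895 points (0.442 against sham 1 and 1.35 against sham 2), with 3 above and 0 below. Of the ligands, Dll1 had 1.18% and 1.45% in saline against 1.51% and 0% in sham, and Dll4 had 1.18% and 3.54% against 1.37% and 1.94%, so both overlapped. Of the receptors, Notch3 had 1.37% and 1.32% against 0.907% and 0%. Rbpj, the DNA-binding factor of the pathway, had 2.99% and 2.19% against 1.20% and 0.877%, and its target Hey2 had 3.60% and 2.63% against 1.77% and 0.491%. All tested Notch genes were under 4% in the 4 libraries without CCGG sites. Over all sites Hey2 had 12.2% and 11.7% against 10.5% and 7.56% (edgeR unadjusted p = 0.0395, adjusted p = 0.659).

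Of 39 Hox genes, 8 could be tested, with 3 above, 1 below and a median of 1.37 points, but 0.0346 points against sham 1 and 2.64 points against sham 2. Besides Hoxa5, Hoxd9 had 5.20% and 3.18% in saline against 2.34% and 0% in sham, and Hoxd11 had 4.63% and 2.95% against 1.67% and 1.88%. Hoxd12 was the one below, with 33.2% and 36.7% against 36.8% and 44.6%. Hoxa5 had the largest difference of the 8 and the only unadjusted p under 0.05 among them.

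Nephron transcription factors had 8 of 26 genes tested. Their median was 1.33 points (0.557 against sham 1 and 2.01 against sham 2), with 4 above and 0 below. Pax2, a regulator of kidney development, had 4.36% and 3.68% in saline against 3.14% and 2.45% in sham, and Irx2, an Iroquois homeobox gene, had 7.46% and 4.29% against 3.52% and 4.04%. Ppara, a regulator of fatty acid oxidation, had 3.45% and 1.93% against 1.38% and 0.459%. Over all sites edgeR gave unadjusted p-values of 0.0275 for Pax2 and 0.0306 for Irx2, and adjusted ones of 0.659. In the list of tubule transport and metabolism 5 of 37 genes were tested. Their median was 1.35 points (1.12 against sham 1 and 1.82 against sham 2), with 3 above and 0 below. Ggt1, a brush border enzyme gene, was the member of high level, with 61.2% and 44.5% in saline and 33.5% and 37.5% in sham at 3 sites. Lrp2, the gene of the endocytic receptor megalin, had 2.08% and 1.22% against 2.04% and 1.49%.

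Markers of other cell types were thinly covered. Of 32 leukocyte genes 3 were tested (Runx1, Lcp1 and Coro1a), with 2 above and 0 below, and their levels ran from 1.45% to 6.49% over the 4 libraries. Endothelium had 2 of 15 genes tested (Kdr and Flt1), with 1 above and 0 below, and 0 of 8 podocyte genes were tested. No RNA was measured, so the labelled tissue could not be checked by expression. Of the 5 tested tubule genes, Slc9a3, Lrp2, Aqp3 and Scnn1g were at 0% to 3.70% in all 4 libraries, but Ggt1 was at 33.5% to 61.2%. The leukocyte genes were low as well, so a low level does not tell these cell types apart. The share of leukocytes or other cells in each library was not tested.

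The remaining lists held promoters of low and of high level. In the DNA methylation machinery 7 of 17 genes were tested. Their median was 0.503 points (0.0583 against sham 1 and 0.759 against sham 2), with 0 below and 3 above. All 3 were members of the Gadd45 family of stress-response genes, such as Gadd45b with 3.01% and 1.92% in saline and 1.13% and 0.434% in sham. Dnmt3a, a de novo methyltransferase gene, had 18.9% and 34.4% against 32.8% and 25.9%, so the groups overlapped. Genes of cell injury and repair had 3 of 21 tested, with 3 above. Cdkn1a, a cell-cycle inhibitor gene, had 2.60% and 2.38% in saline and 1.72% and 1.85% in sham. Germline genes, whose promoters are methylated in somatic tissue, had 8 of 21 tested. Their median was -0.0306 points (-0.0752 against sham 1 and -0.931 against sham 2), with 0 above and 3 below. Most of them were above 80%. Of the 49 promoters of 80 to 100% in the 5AZA libraries, 12.2% lay above both shams and 22.4% below. The germline counts are to be read against these shares and not against those of all genes. Asz1 had 94.9% and 94.3% in saline against 95.8% and 96.6% in sham, and Ddx4 had 73.1% and 66.0% against 61.8% and 68.2%.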

How the data were processed

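Libraries were made by reduced representation bisulfite sequencing. The submitters' processing notes name Bowtie and mm9. How reads were trimmed, called and filtered is not given in the sources used here. For each library the authors deposited, per CpG site, counts of covering and of methylated reads and a fraction that equals their ratio; the files have no header, so columns were identified from the values. Positions are printed 1-based.

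Sites with at least 10 reads in all 6 libraries were used. Methylated and unmethylated counts were summed per 1000 bp window, or per placed promoter, with at least 3 sites. They were tested with edgeR 4.0.16 (R 4.3.3; glmQLFit and glmQLFTest, an intercept per library, 1 common dispersion over all 6 libraries, Benjamini-Hochberg over all units). A lone sham is assumed to vary like the other groups. limma 3.58.1 was run on log2 ratios computed from the deposited counts with 1 added to each. Tables used Python 3.11.15, numpy 2.4.6 and pandas 2.3.3.

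No mm9 annotation was used. A RefSeq promoter (GRCm38.p6; 250 bases before to 50 after the start) was placed where its CpG spacing matched the deposited positions at 1 place of its chromosome, with at least 6 observed sites and none off a CpG. Of 8245 placed, 146 were then dropped because their shift between builds differed by over 20000 bp from the median of 11 neighbours, a step added after the data were seen. Gene spans take their length from GRCm38.p6. A candidate fragment end had coverage within 5% of the sum of both neighbours, or at least 30% methylation in a window whose median was under 5%, given 10 sites or more.

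Members and gene lists were chosen with earlier results of these data known. Named were the called windows at a placed promoter, the 5 largest rises and falls among called windows, the 15 rises and 8 falls of smallest p among promoters whose groups do not overlap, up to 2 promoters per list by p, Hoxa5 and Jag1. Other list members, gene spans, sequences, classes, start-site bins, flanking windows, means over sites and pairs without a shared library were chosen after the data were seen. Alternatives were coverage of 5 or 20, at least 5 sites, limma, no fragment-end or no CCGG sites, a minimum difference of 10 points, windows of 500 bp, 4 libraries, leaving out each library, and a replicate block.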

Additional observations from a re-analysis of the deposited data

How the results depend on the processing

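The 45 window calls became 0 by limma and 0 without candidate fragment-end sites, 72 with the 4 libraries alone, and 0 to 40 when a library was left out. Against sham 1 the 1 call became 3 at a coverage minimum of 5, 0 at a minimum of 20, 0 with at least 5 sites, 0 by limma and 0 without candidate fragment-end sites, and 0 to 3 without a saline library. Against sham 2 the 38 calls became 20 at a minimum of 20, 21 with at least 5 sites, 0 by limma and 1 without candidate fragment-end sites, and 5 to 12 without a saline library. Between the shams the 6 calls became 2 with a difference of at least 10 points, 2 at a minimum of 20, and 0 with at least 5 sites, by limma or without candidate fragment-end sites. The cause was not tested. Promoter calls against both shams stayed at 0 in each alternative run except the replicate block. Without saline 2 there were 13 promoters against sham 1 alone (6 higher, 7 lower) and 11 against sham 2 alone. Against sham 2 alone there was 1 without saline 1, and there were 2 without CCGG sites. The mean level difference of 1.61 points was -0.0686 as methylated reads over all reads, and 0.865 to 2.36 points when a library was left out.

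No paired analysis was possible because the groups share only replicate number 1, as the title of sham 2 carries none. With sham 2 in a block of its own, the replicate block gave 1135 windows (630 higher, 505 lower) and 478 promoters, from a fit with 1 residual degree of freedom.

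Of the single promoters and windows named, 400 values under alternatives kept their direction and, where tested, their side of the threshold, 81 lost and 22 gained a call, 10 moved by more than the spread within groups, and 35 reversed. Ppt2 was at 1.55 points at a minimum of 20. As a mean over sites, a weighting chosen after the data were seen, Ppt2 was at 1.32, Gm35829 at 0.517, Tcf7l2 at 0.251 and each Git2 start region at 0.126 points. Without CCGG sites, by edgeR or limma, Gm35829 was at 2.32, Aftph at 0.604 and each Git2 start region at 0.444 points; Aftph and Git2 had the same values without candidate fragment-end sites. With 1 library left out, with or without CCGG sites, Gm35829 ranged from -13.2 to 4.91, Aftph from -12.8 to 0.694, Git2 from -9.29 to 0.831, Ppt2 from -19.7 to 0.445 and Ofd1 from -0.599 to 19.8 points. Coverage, lowest in sham 2, limits sites and short windows, and 2 libraries a group limit every test.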

Other observations

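Mitochondrial DNA had 10 shared sites, which are among the 943307 sites of the comparison. At position 3344 the level was 1.15% and 1.30% in saline, 1.23% in sham 1 and 0.401% in sham 2, with at least 3928 reads in each library. At position 3395 it was 1.40% and 1.89% in saline, 1.61% in sham 1 and 0.627% in sham 2. Sham 2 was thus the lowest of the 4 at both sites. At position 6231 the level was 54.6% in saline 1 (291 reads), 19.3% in saline 2, 14.7% in sham 1 and 1.53% in sham 2, and at position 6263 it was 54.1%, 20.1%, 14.5% and 2.49% in the same order. Saline 1 and sham 2 stood at opposite ends there, and the 2 saline libraries differed from each other by more than saline 2 and sham 1 did.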
